A study of Mus musculus with 51 samples.

Results

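The genes described here encode neural adhesion and axon guidance proteins. They were all entries of the deposited signal files whose symbol starts with Pcdh, Plxn, Sema, Robo, Ntn, Nrxn, Nlgn, Ntrk, Nrcam or Ncam, or is Nrp1 or Nrp2. This gave 77 of the 6248 genes listed, and each of the 77 matched a RefSeq symbol. RefSeq names 122 protein-coding genes of these families in the mouse. The others, among them Nrp1, Nrp2, Robo1, Ntn1, Sema3a, Nlgn1 and Nlgn3, were not analysed here.

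Semaphorins and netrins are guidance cues that growing axons read through receptors on the growth cone. Plexins, often with neuropilins, are the receptors of semaphorins, and Robo proteins are the receptors of Slits. Neurexins and neuroligins pair across the synaptic cleft, Ncam and Nrcam hold axons and glia together, clustered protocadherins give single neurons a surface identity, and Trk receptors bind neurotrophins. In the cochlea the bipolar spiral ganglion neurons depend on neurotrophin-3 and BDNF, the ligands of TrkC (Ntrk3) and TrkB (Ntrk2). These neurons are ensheathed by Schwann and satellite glia.

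The study used GeoMx, in which light frees barcoded probes from areas picked on a section, and sequencing counts them. Sections of 6 µm came from fresh-frozen cochleae of male CBA/CaJ mice aged 16 weeks, for which the labels name no mutation, with 5 animals per treatment. Noise-exposed mice received broadband noise of 100 dB SPL for 2 h, and control mice a mock exposure. The sample titles add 4 h after the noise, whereas the design text places death directly after it. The 4 groups were neuron regions after mock (16) or noise (13) exposure and supporting-cell regions after mock (14) or noise (8) exposure. The sources used here do not say how regions were chosen. Replicate 6 of the noise neurons held 1 and the same value for every gene and was left out, so that 50 regions entered every comparison, 12 of them noise neurons.

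The labels tie no region to an animal. Since each group outnumbers its 5 animals, animals gave more than 1 region, and all p-values below are too small. Mock and noise regions carry different area names in the labels, so that any slide or run and the treatment cannot be told apart. The deposited signal had been scaled so that each region has the same upper quartile, 3.12. Reads recovered from it ranged from 10146 to 58015 per region (median 23492) for mock neurons, 12127 to 88138 (26704) for noise neurons, 9606 to 22924 (12884) for mock supporting cells and 11768 to 25601 (16880.5) for noise supporting cells. The value of 1 read was therefore 0.780, 0.650, 1.30 and 0.910 in the median region of these groups. No gene was listed at 0. Of 12 neuron markers 10 were listed, and their summed level was 175 to 430, 105 to 273, 46.8 to 114 and 33.5 to 114 in these groups. Of 10 markers of glia and Schwann cells 8 were listed, summing to 24.9 to 48.9, 16.6 to 32.2, 93.6 to 176 and 45.7 to 79.5 in the same order. Of 8 markers of organ of Corti supporting cells 3 were listed (Sox2, Prox1 and S100a1), with median sums of 5.33, 6.24, 7.28 and 6.63. The regions labelled supporting cells thus held high levels of glial markers, and the label is used here as deposited.

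In the tests below, Sema7a passed as higher in neuron regions after both exposures and Ntng2 after noise. Sema5a passed as higher in supporting-cell regions after mock exposure. The sequences just before the start of transcription are shown for these 3 genes, on which the results turn. Each is 250 bases from RefSeq (GRCm38.p6), 5′ to 3′ on the gene's strand: Sema7a at chr9:57939862-57940111 on the plus strand, Ntng2 at chr2:29248100-29248349 on the minus strand and Sema5a at chr15:32244563-32244812 on the plus strand. Capitals mark the E-box, CANNTG, a palindrome read the same on both strands.
Sema7a: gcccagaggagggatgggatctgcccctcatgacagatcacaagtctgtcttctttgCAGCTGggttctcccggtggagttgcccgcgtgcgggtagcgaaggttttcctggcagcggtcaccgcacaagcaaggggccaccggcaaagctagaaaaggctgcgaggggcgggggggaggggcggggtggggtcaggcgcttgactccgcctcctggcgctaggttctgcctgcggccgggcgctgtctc
Ntng2: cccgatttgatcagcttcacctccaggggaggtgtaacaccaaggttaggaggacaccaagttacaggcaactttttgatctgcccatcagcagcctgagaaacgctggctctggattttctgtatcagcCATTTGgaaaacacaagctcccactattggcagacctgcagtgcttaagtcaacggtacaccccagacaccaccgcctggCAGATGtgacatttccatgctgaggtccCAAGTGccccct
Sema5a: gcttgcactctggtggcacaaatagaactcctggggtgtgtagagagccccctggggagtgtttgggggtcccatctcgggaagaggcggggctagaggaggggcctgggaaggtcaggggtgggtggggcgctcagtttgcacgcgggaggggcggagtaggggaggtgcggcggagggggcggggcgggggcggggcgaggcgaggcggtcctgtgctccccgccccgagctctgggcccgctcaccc
The Sema7a window held 1 E-box, the Ntng2 window 3 and the Sema5a window 0, while 66.2% of 32851 RefSeq windows of this length held at least 1. A core SOX motif, ACAAAG or its reverse complement CTTTGT, was in none of the 3 windows and in 16.5% of all windows. The E-box does not overlap the SOX core in its letters. CpG pairs numbered 17 in Sema7a, 4 in Ntng2 and 17 in Sema5a, against a median of 6. The RefSeq span of Sema7a opens at 57939596, so its window lies inside the annotated gene, whereas the Ntng2 and Sema5a windows border theirs. These matches describe the letters only.

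Olfactory receptor (Olfr) entries, 568 in all, served as the background, since these receptors belong to the nose. A gene was counted above it in a group when its mean log2(value + 1) exceeded the 0.95 quantile of the Olfr entries there, which 5% of Olfr entries do by construction. Values of different probes are not amounts of RNA per length. The limit is itself drawn from the probes of other genes, so setting a gene against it shares this restriction. In neurons the limits were 1.74 (mock) and 2.03 (noise), and in supporting cells 1.98 (mock) and 2.21 (noise). The limit was lowest in the group with the most regions and highest in that with the fewest. Passing it in a single group therefore does not by itself show a difference in level.

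Of the 77 genes, 66 never stood above the olfactory receptor entries and 11 did in at least 1 group. In mock neurons 9 were above (Sema7a, Plxna4, Ntng2, Ncam1, Sema3f, Robo4, Plxna1, Ntrk3 and Nrcam), where 31.4% of all genes other than Olfr were. After noise 3 remained above in neurons (Sema7a, Plxna4 and Ntng2), against 16.8% of other genes. Mock supporting cells had 3 (Sema3b, Sema5a and Sema7a), against 11.9%, and noise supporting cells had Robo4 alone, against 7.02%. The share of the 77 genes above was below that of other genes in each of the 4 groups. In mock neurons the nearest genes inside the limit were Ntrk3 (1.78) and Nrcam (1.76), and the nearest outside were Pcdhb14 (1.72) and Nlgn2 (1.71).

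**Figure D1:**
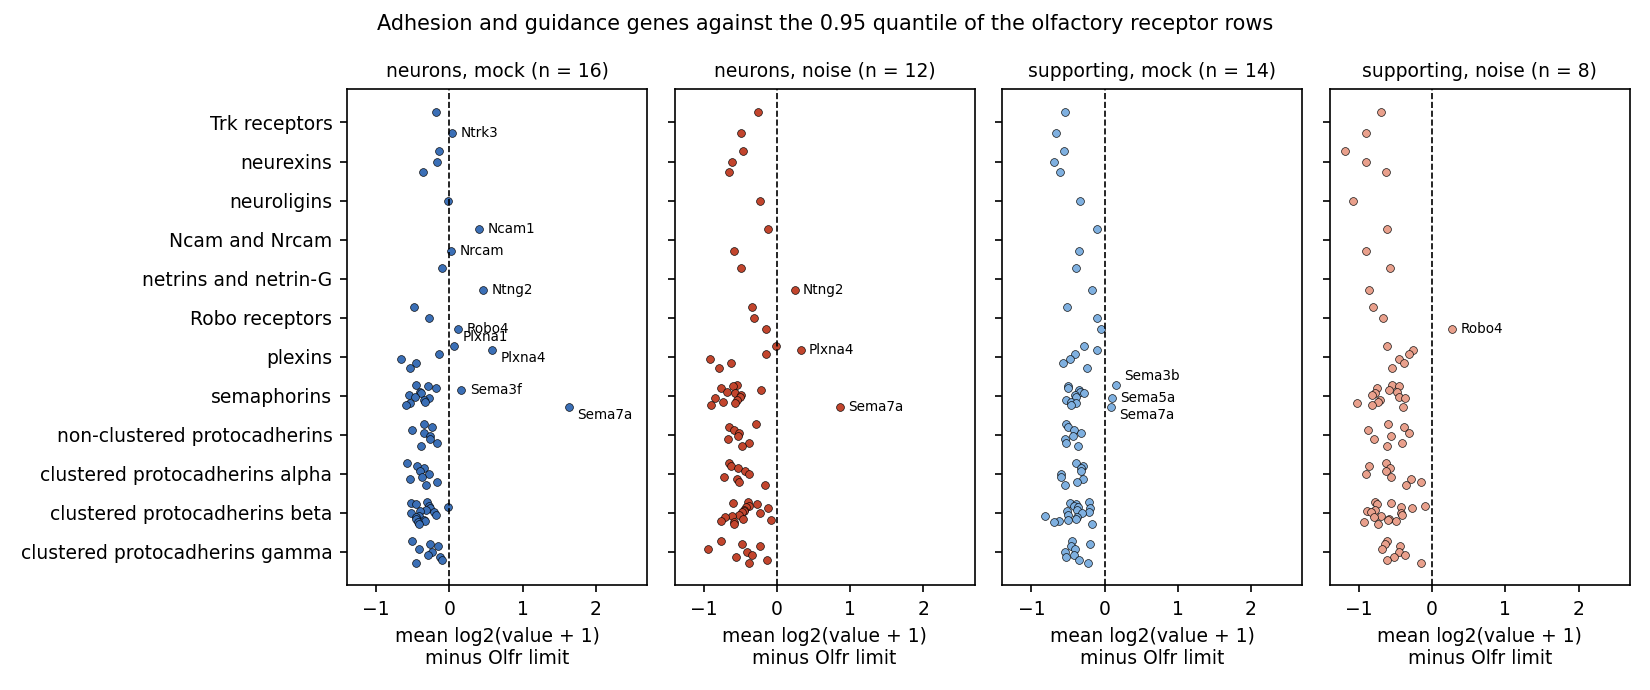
Each point is 1 of the 77 genes, placed by its mean log2(value + 1) minus the olfactory receptor limit of that group (dashed line at 0), by family and for the 4 groups. Named points lie above the limit: 9, 3, 3 and 1 genes from left to right, and none is a clustered protocadherin.

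Among the ligands, Sema7a was the one semaphorin of the 14 listed that was above its limit in both neuron groups. Semaphorin 7A is anchored to the membrane by a lipid and binds integrins and plexin C1. Its signal was 3.12 at the lowest, 9.87 at the median and 14.0 at the highest in 16 mock neuron regions, and 1.04, 7.15 and 12.5 in 12 noise neuron regions. Supporting-cell regions had 1.56, 3.12 and 6.24 after mock exposure (n = 14) and 1.04, 2.60 and 4.68 after noise (n = 8). Of the mock neuron regions 14 lay above every mock supporting-cell region, and of the noise neuron regions 9 lay above every noise supporting-cell region, so the groups overlapped in few regions. Its mean log2 level exceeded the Olfr limit by 1.63 in mock neurons, 0.86 in noise neurons and 0.09 in supporting cells after mock exposure, and lay 0.39 under it (-0.39) in those after noise. In single regions, Sema7a passed the limit of that region in 15 of 16 mock and 9 of 12 noise neuron regions.

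Sema3b and Sema5a had the reverse distribution. Semaphorin 3B is a secreted cue read through neuropilins and plexins, and semaphorin 5A is a transmembrane cue with thrombospondin repeats. Sema3b ranged from 1.04 to 6.24 (median 3.12, n = 14) in supporting cells after mock exposure and from 0.780 to 3.12 (median 1.45, n = 16) in mock neurons. After noise it ranged from 0.520 to 4.16 (median 1.61, n = 12) in neurons and from 1.04 to 3.90 (median 2.42, n = 8) in supporting cells. No mock neuron region exceeded the mock supporting-cell median, and 6 of the 14 supporting-cell regions lay above every neuron region. For Sema5a the same 4 groups gave medians of 3.12 (1.25 to 8.32), 1.82 (0.520 to 4.16), 1.25 (0.445 to 3.12) and 2.08 (1.56 to 6.24), with 6 of 14 mock supporting-cell regions above every mock neuron region. These levels rested on medians of 1.5 to 3.5 reads per region, so a step of 1 read was a large share of each value. Of the other semaphorins, Sema3f, a secreted cue that binds neuropilin-2, was above background in mock neurons (1.04 to 4.90, median 3.12). Sema4d (medians 1.30, 2.08, 1.56 and 1.56 in neurons after mock and noise exposure and supporting cells after mock and noise exposure) and Sema6d (1.04, 1.19, 1.56 and 1.40) were below the limit in all 4.

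Ntng2 encodes netrin-G2, a lipid-anchored relative of the netrins that binds an adhesion protein of the synapse. Its signal was 1.56 to 7.80 (median 3.90, n = 16) in mock neurons and 1.04 to 8.32 (median 3.98, n = 12) in noise neurons. In supporting cells it was 1.04 to 7.28 (median 2.81, n = 14) after mock exposure and 0.780 to 3.12 (median 1.56, n = 8) after noise. The mock groups overlapped widely, with 1 of 16 neuron regions above every supporting-cell region, whereas 8 of 12 noise neuron regions lay above every noise supporting-cell region.

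Of the receptors, Plxna4, which with neuropilins reads class 3 semaphorins and also binds class 6 semaphorins, was above background in both neuron groups. Its neuron signal ranged from 1.56 to 7.28 (median 4.16) after mock exposure and 2.43 to 7.02 (median 4.18) after noise. Its supporting-cell signal was 1.04 to 6.24 (median 3.12) and 1.04 to 4.99 (median 2.73). Of mock neuron regions 11 of 16, and of noise neuron regions 11 of 12, lay above the supporting-cell median of their treatment, yet all groups overlapped. Plxna1 had medians of 2.86, 3.12, 1.82 and 2.03 in the same order, and in noise neurons it lay 0.01 under the limit (-0.01). Plxnd1, the receptor of Sema3e in blood vessels and neurons, was below the limit in all 4 groups (medians 1.14, 1.30, 1.82 and 2.21). Robo4, a Robo family member known from endothelium, had medians of 2.57, 3.12, 3.12 and 4.68, and in noise supporting cells all 8 regions lay between 3.12 and 7.80. The 2 endothelial markers listed, Pecam1 and Tek, summed to median levels of 3.12, 3.12, 3.12 and 4.52, and neither was above the Olfr limit in any group. Their part in the Robo4 level was not tested.

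The Trk receptors were near or below background. Ntrk3 (TrkC) had 0.520, 2.28 and 7.02 as lowest, median and highest in mock neurons, a mean log2 level 0.04 above the limit, and medians of 1.56 in noise neurons and 1.56 and 1.40 in supporting cells after mock and noise exposure. Ntrk2 (TrkB) was below the limit in every group, with medians of 1.82, 2.51, 1.56 and 2.08. Both genes rested on medians of 1 to 3.5 reads per region.

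Among the adhesion proteins, Ncam1 was above background in mock neurons only (1.56 to 6.24, median 3.12), with medians of 2.95 in noise neurons and of 2.81 and 2.73 in supporting cells after mock and noise exposure. Its mean log2 level was 2.14 in mock neurons, 1.90 in noise neurons and 1.88 in mock supporting cells, against limits of 1.74, 2.03 and 1.98. All of these levels exceeded the mock neuron limit. Regions of all groups overlapped for this gene, which is made by neurons and glia alike. Nrcam, a protein of nodes of Ranvier, passed the limit in mock neurons through a single region. Mock neuron replicate 15 had a signal of 59.2 (114 reads), and the other 15 regions ran from 0.520 to 4.16. Without that region, left out after its value was seen, Nrcam averaged 1.48 on the log2 scale against a limit of 1.73, and 8 of the 77 genes were above background.

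At the limit used, the synaptic pair was not seen above background. The neurexins Nrxn2 and Nrxn3 had mock neuron medians of 2.08 and 1.56, and no group mean of theirs passed its limit. Nlgn2, the neuroligin of inhibitory synapses, had medians of 2.42, 2.53, 1.56 and 1.04. It passed in mock neurons at the 0.90 quantile and with medians over regions. In noise supporting cells Nlgn2 rested on a median of 1 read, so an absence of the transcript cannot be told from a level under 1 read at this depth.

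None of the 36 clustered protocadherins listed passed the limit in any group, nor did any of the 8 non-clustered ones. This depended on the rule. At the 0.90 quantile Pcdhb14 passed in mock neurons, Pcdhb6 in noise neurons and Pcdhb13 in noise supporting cells. Pcdhb14 also passed in mock neurons with medians over regions. With a pseudocount of 10 Pcdhb20 passed in noise neurons, where a single region stood at 58.5. RefSeq places all 36 clustered genes on chromosome 18, in the alpha (9 listed), beta (18) and gamma (9) clusters. Their mean log2 levels spanned 1.16 to 1.56 (alpha), 1.21 to 1.72 (beta) and 1.23 to 1.64 (gamma) in mock neurons, with family medians of 1.36, 1.36 and 1.47. The Olfr entries there averaged 1.41. Genes of these clusters share near-identical stretches, and the sources used here do not say how the probes tell them apart. Pcdh7 and Pcdh10, non-clustered members, had mock neuron medians of 1.56 and 1.72.

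**Figure D2:**
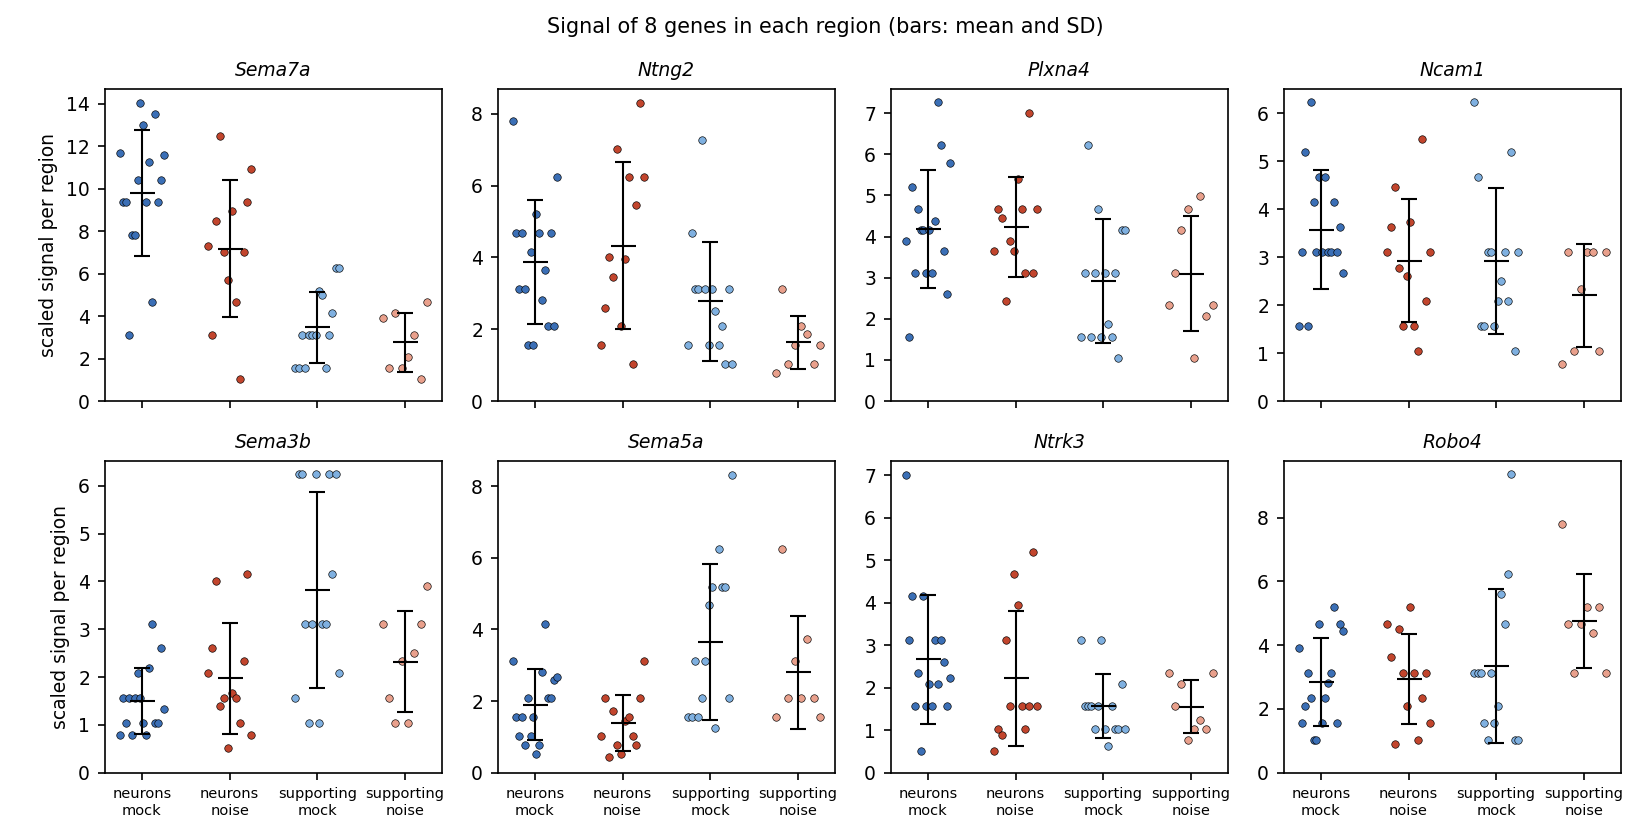
Scaled signal of 8 genes in every region, by group (16, 12, 14 and 8 regions), with the mean and SD as bars. Sema7a is high in both neuron groups, Sema3b and Sema5a are highest in mock supporting cells, and all 8 genes overlap between the groups compared.

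The first comparison asked which genes differ between neuron and supporting-cell regions. It was run over all genes with limma on log2(value + 1), where 58 of the 77 genes passed the filter on low values. In mock-exposed cochleae 6 of the 58 passed an adjusted p of 0.05, where 19.1% of all 4686 genes tested did. Sema7a was higher in neurons, where 13.4% of all genes were, and Sema3b, Sema5a, Plxnd1, Pcdha9 and Pcdhb9 were lower. Of the 1920 other genes tested from Ncam1 to Sema7a in the alphabet, without Olfr, 11.5% passed, beside 10.3% of the 58. Of these 1920 genes 5.68% were higher and 5.83% lower in neurons. The median difference of the 58 genes was -0.07, that of all genes -0.05 and that of the 465 Olfr entries tested -0.23. The balance of directions turned with the subtraction of background. With the negative probe's signal subtracted in each region, the median of all genes moved from -0.05 to 0.23 and that of the adhesion and guidance genes from -0.07 to 0.21. Of 57 then tested, 4 were called higher in mock neurons (Sema7a, Ntng2, Ntrk3 and Plxna4) and 1 lower (Sema3b), where 1035 of all genes were called higher and 72 lower, against 629 and 264 without the subtraction.

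Sema7a was higher in mock neuron than in mock supporting-cell regions by 1.30 on the log2 scale (SE 0.21, limma adjusted p = 1.12e-08), with means of 9.79 ± 2.96 (SD, n = 16) and 3.47 ± 1.67 (SD, n = 14). In the 14 areas that held both region types of mock animals, the neuron region was higher in 13 and equal in 1. After noise the difference was 1.07 (SE 0.26, limma adjusted p = 0.00134), with means of 7.17 ± 3.22 (SD, n = 12) and 2.76 ± 1.38 (SD, n = 8), and the neuron region was higher in 5 of 7 shared areas. The differences in mock and noise cochleae were not told apart (difference of differences -0.23, SE 0.33, limma adjusted p = 0.951). Both differences passed in each of the 16 alternatives and with each single region left out. These p-values are too small, since regions outnumber animals.

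Sema3b was lower in mock neurons by 0.85 (-0.85, SE 0.19, limma adjusted p = 9.23e-05), with means of 1.5 ± 0.69 (SD, n = 16) and 3.82 ± 2.05 (SD, n = 14). Sema5a was lower by 0.62 (-0.62, SE 0.19, limma adjusted p = 0.00879), Plxnd1 by 0.53 (-0.53, SE 0.18, limma adjusted p = 0.0188), Pcdhb9 by 0.49 (-0.49, SE 0.18, limma adjusted p = 0.0419) and Pcdha9 by 0.48 (-0.48, SE 0.18, limma adjusted p = 0.0471). The last 3 were below the Olfr limit in every group and had medians of 1 to 2 reads per region in both groups compared. Of 465 Olfr entries 37, or 7.96%, were also called lower in mock neurons and 0 higher, beside 8.62% of the 58 genes and 5.63% of all genes. Glial markers were higher in the same supporting-cell regions (6 of 8 passed the test). So was S100a1, 1 of 2 organ of Corti markers tested (neuron minus supporting cells -0.62, SE 0.19, limma adjusted p = 0.00971). The part of the cells that carry these markers in the differences above was not tested.

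Depth moved with the region type as well, since 1 read was worth 0.780 in the median mock neuron region and 1.30 in the median mock supporting-cell region. With the mean of the Olfr entries in each region as a covariate, Sema7a alone of the 6 still passed, and Sema3b fell to -0.20 (adjusted p = 0.786 in that limma fit). The calls over all genes fell in the same fit, from 893 to 407, and those lower in neurons from 264 to 40. Over 16 alternatives the adjusted p of Sema3b ran from 6.35e-05 to 0.786. Without mock supporting-cell replicate 8 the count was 3 (Sema7a, Sema3b and Sema5a). Plxnd1 then failed the filter on low values.

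In noise-exposed cochleae 2 of the 58 genes passed, where 7.94% of all genes did, namely Sema7a and Ntng2, both higher in neurons. By direction, 6.76% of all genes were called higher and 1.17% lower, against 2 and 0 of the 58. Of the 1920 other genes from Ncam1 to Sema7a in the alphabet 3.65% passed, beside 3.45% of the 58. Ntng2 was higher by 0.92 (SE 0.25, limma adjusted p = 0.00488), with means of 4.33 ± 2.32 (SD, n = 12) and 1.63 ± 0.75 (SD, n = 8). In the 7 areas holding both types the neuron region was higher in 5 and equal in 2. In mock cochleae the Ntng2 difference was 0.39 (SE 0.20, limma adjusted p = 0.156). The mock and noise differences were not shown to differ (0.53, SE 0.32, limma adjusted p = 0.874). With DESeq2 on recovered reads Ntng2 missed the threshold (adjusted p = 0.0566), and its adjusted p ran from 0.00265 to 0.0566 over 16 alternatives.

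A few differences lay near the threshold without passing: Nlgn2 after noise at 0.67 (SE 0.23, limma adjusted p = 0.0556), Ntrk3 after mock exposure at 0.47 (SE 0.18, limma adjusted p = 0.0549) and Sema5a after noise at -0.65 (SE 0.24, limma adjusted p = 0.0631). The protocadherins Pcdhgc5 (-0.48, SE 0.19, limma adjusted p = 0.0525) and Pcdhb20 (-0.46, SE 0.19, limma adjusted p = 0.0647) were also near it after mock exposure. With the area as a block, since 21 areas held both region types, Ntrk3 passed after mock exposure (0.47, limma adjusted p = 0.0475), as did Pcdhgc5, a gamma protocadherin lower in neurons (-0.48, limma adjusted p = 0.0453), which made 8 of the 58. The count after noise was 4 without noise neuron replicate 2, without noise neuron replicate 12 or without noise supporting-cell replicate 8. Plxna4 was higher in neurons by 0.45 in mock and 0.40 in noise cochleae without passing (limma adjusted p = 0.102 and 0.404).

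**Figure D3:**
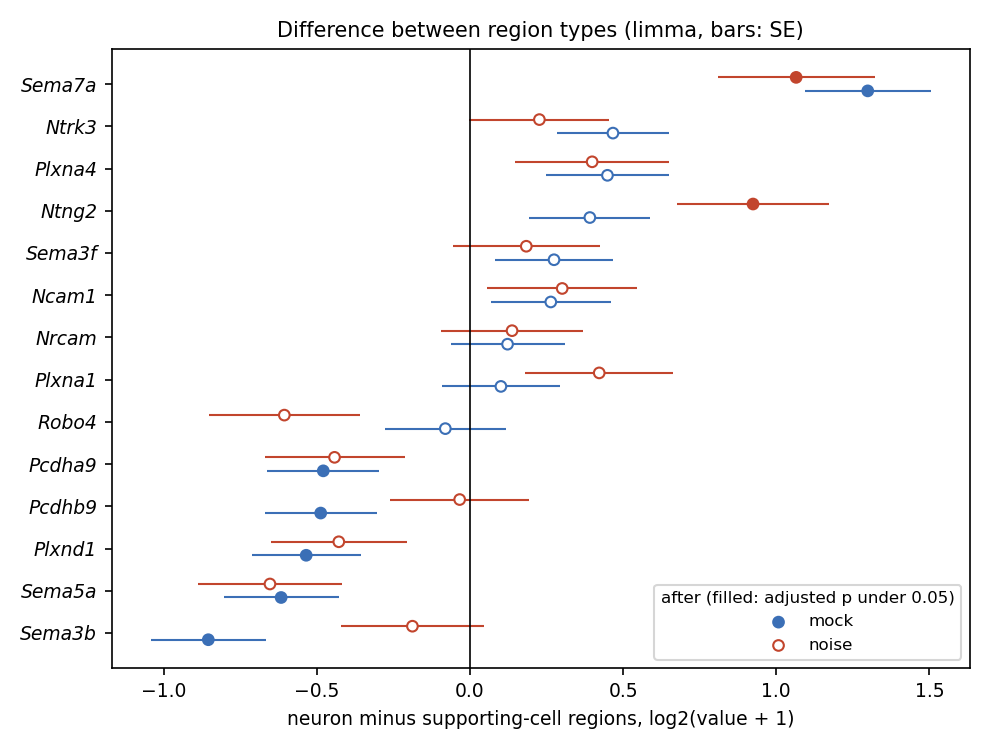
Neuron minus supporting-cell difference of the genes that passed a test or stood above the olfactory receptor limit in any group, in log2(value + 1) with SE, after mock (blue) and noise (red) exposure, and filled where the adjusted p is under 0.05. Sema7a is filled for both exposures, Ntng2 for noise, and Sema3b, Sema5a, Plxnd1, Pcdha9 and Pcdhb9 for mock, on the supporting-cell side.

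Further genes of the same pathways were taken from 4 lists, and their counts stand beside 13.4% of all genes called higher and 5.63% called lower in mock neurons. The lists were chosen with earlier results of these data known, so their counts are a description and no test against these shares. Of 28 further neuronal adhesion and synapse genes listed, 20 were tested and 7 were higher in mock neurons, led by Mdga1 (1.78), which restrains neuroligins, Adgrl1 (1.25), a teneurin receptor, and Cntn1 (1.24), a contactin of the paranode. Mdga1 had 10.9 to 26.5 in mock neurons and 1.56 to 9.36 in mock supporting cells, with no overlap. Of 12 other guidance ligands and receptors, all tested, 5 were higher in mock neurons (Efnb2, Epha4, Rtn4, Lingo1 and Omg) and 0 lower. Of 29 intracellular partners listed, 22 were tested and 7 were higher, led by Apba1 (1.72) and the postsynaptic scaffold Dlg4 (1.44), and 1, the kinase Fyn (-0.56), was lower. Of the neurotrophins and their other receptors 2 were listed, Ngfr and Sort1, and neither passed in mock cochleae. In noise cochleae 3, 1, 5 and 1 genes of these 4 lists were higher in neurons, Ngfr among them (0.72), and 0 were lower, beside 6.76% and 1.17% of all genes. The 4 lists had median mock differences of 0.34, 0.43, 0.09 and 0.37 beside -0.05 for all genes, and 0 of their genes passed the noise comparison in either region type.

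The second comparison asked what noise did within each region type. In neuron regions 0 of the 58 genes passed, where 0.662% of all genes did. In limma 6 had an unadjusted p under 0.05, or 10.3% of the 58, beside 13.5% of all genes and 17.6% of the Olfr entries. In supporting-cell regions 0 passed, where 0.363% of all genes did. There 5 had an unadjusted p under 0.05 in limma, or 8.62%, beside 10.1% of all genes. The noise effects of the region types differed for 0 of the 58 and 0.0% of all genes. For this difference 4 had an unadjusted p under 0.05 in limma, or 6.90%, beside 5.61% of all genes. On the recovered reads edgeR called 2, 0 and 0. DESeq2 called 0 in each of the 3, but its filter left 54 and 57 of the 58 genes without an adjusted p in the neuron and supporting-cell comparisons.

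Sema7a had a noise minus mock difference of -0.48 in neurons (SE 0.21, limma adjusted p = 0.304), with 3 of 16 mock regions above every noise region and 1 of 12 noise regions below every mock region. The other 5 genes with an unadjusted p under 0.05 in neurons were protocadherins with positive values, Pcdhb20 (0.58), Pcdhb6 (0.56), Pcdhb12 (0.48), Pcdhac2 (0.45) and Pcdhb15 (0.44). In supporting cells the 5 such genes were Pcdhb13 and Pcdhac1, both protocadherins, Robo4, Nlgn2 and Sema3b. Pcdhb13 had 0.56 (SE 0.23, limma adjusted p = 0.325) and Pcdhac1 0.46 (SE 0.23, limma adjusted p = 0.481). Robo4 had 0.56 (SE 0.24, limma adjusted p = 0.379), Nlgn2 -0.51 (SE 0.23, limma adjusted p = 0.398) and Sema3b -0.47 (SE 0.23, limma adjusted p = 0.462). The Sema3b supporting-cell regions overlapped, with 6 of 14 mock regions above all 8 noise regions. The summed level of 8 glial markers had a median of 116 in mock and 58.9 in noise supporting-cell regions, and its part in the Sema3b values was not tested. In bulk regions fewer cells of a type and less RNA per cell cannot be told apart.

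The median noise difference of the 58 genes in neurons was 0.11, with 41 above 0. It lay between that of all genes (0.02) and that of the Olfr entries (0.19, with 404 of 465 above 0). The 1920 other genes from Ncam1 to Sema7a in the alphabet, without Olfr, had nearly the same median, 0.10. Of these 66.4% were above 0, beside 70.7% of the 58. In supporting cells the medians of the 58 genes, of all genes and of the Olfr entries were 0.04, -0.03 and 0.10, and that of the 1920 genes was 0.02. Clustered protocadherins had family medians of 0.23 (alpha), 0.20 (beta) and 0.23 (gamma) in neurons, near that of the Olfr entries. Of the 9 genes above background in mock neurons, Plxna1 (0.22), Ntng2 (0.07), Robo4 (0.03) and Plxna4 (0.03) had positive differences and Sema7a (-0.48), Nrcam (-0.31), Ncam1 (-0.24), Ntrk3 (-0.24) and Sema3f (-0.09) negative ones, and none passed. Without mock neuron replicate 15 the Nrcam difference was -0.03.

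**Figure D4:**
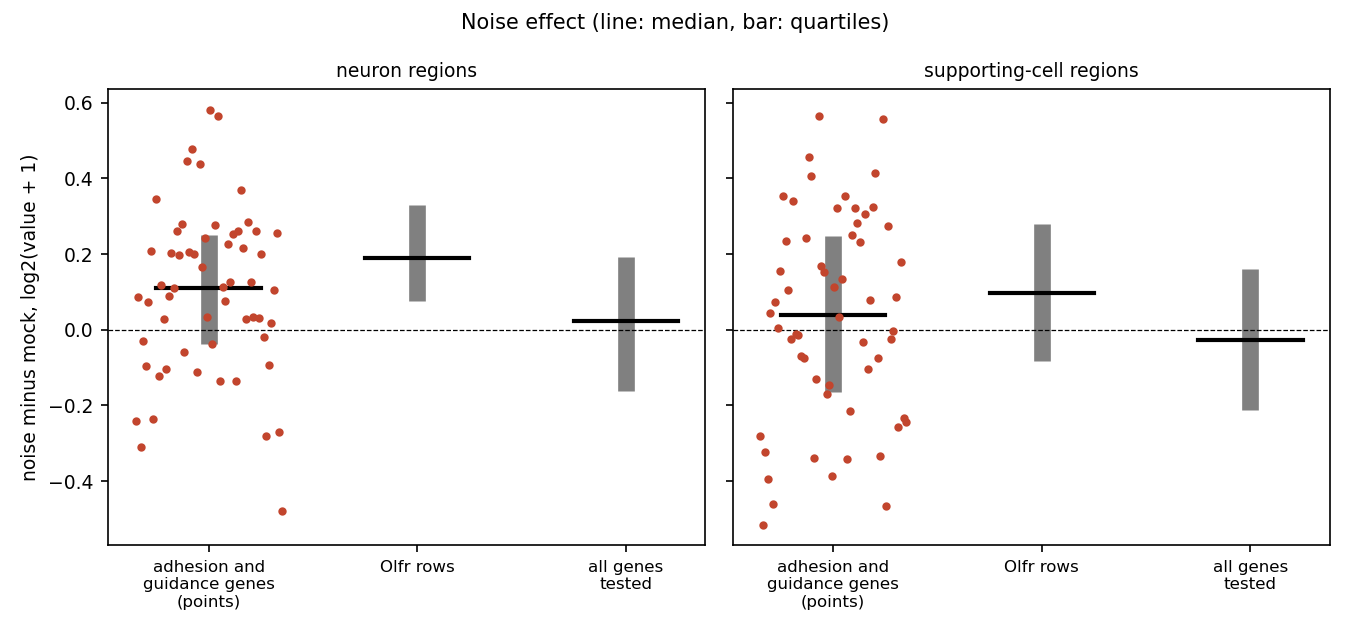
Noise minus mock difference in log2(value + 1) for the 58 adhesion and guidance genes tested (points), with the median (line) and quartiles (bar) of these genes, of the 465 olfactory receptor entries and of all 4686 genes tested. In neuron regions the medians are 0.11, 0.19 and 0.02, and in supporting-cell regions 0.04, 0.10 and -0.03.

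The 2 calls that edgeR made in neurons each rested on 1 region. Nrcam was called lower after noise (log2 fold -1.77, edgeR adjusted p = 0.00018), with the mock neuron region at 59.2 described above. That region's supporting-cell partner of the same area had an Nrcam signal of 2.08. Pcdhb20, a beta protocadherin, was called higher after noise (log2 fold 1.84, edgeR adjusted p = 0.00018). Noise neuron replicate 5 had a Pcdhb20 signal of 58.5 (75 reads), and the other 11 noise neuron regions ran from 0.520 to 4.68. The high value was 14.2 times the next for Nrcam and 12.5 times for Pcdhb20. Without both regions, left out after these values were seen, edgeR called 0 of the 58 genes, with Nrcam at -0.06 (edgeR adjusted p = 0.941) and Pcdhb20 at 0.22 (edgeR adjusted p = 0.823), the highest adjusted p of the 15 alternatives that gave one. The lowest, 0.00018, was edgeR's for both. The limma differences moved from -0.31 to -0.03 for Nrcam and from 0.58 to 0.21 for Pcdhb20.

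**Figure D5:**
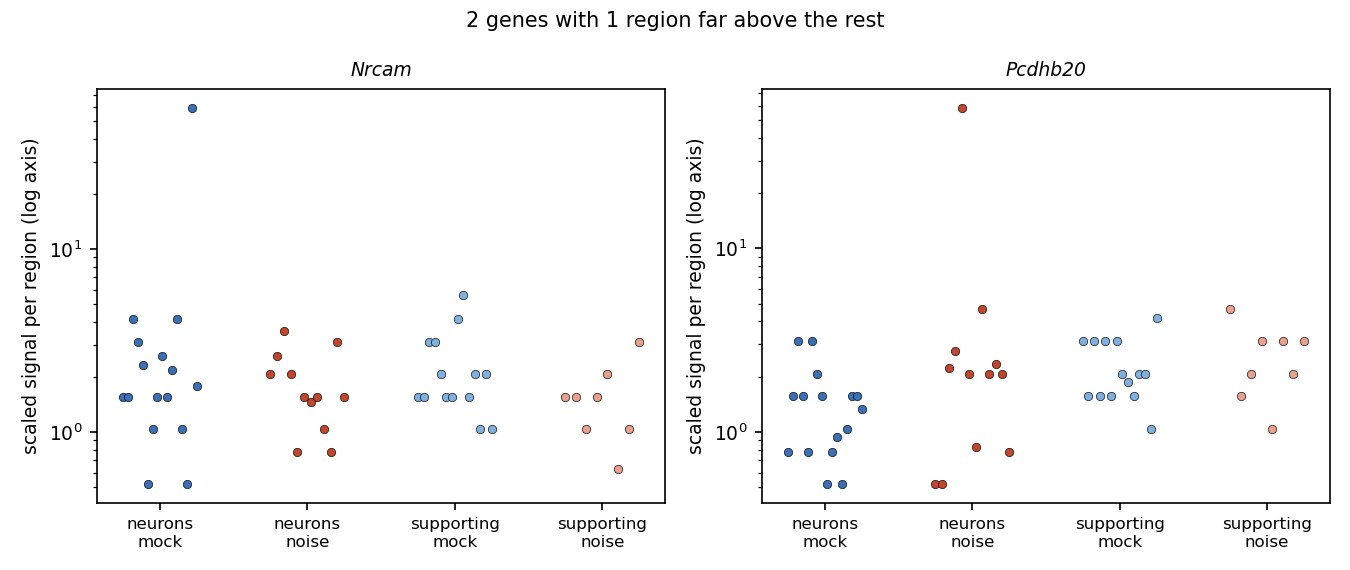
Scaled signal of Nrcam and Pcdhb20 in every region by group, on a log axis. A single mock neuron region stands at 59.2 for Nrcam and a single noise neuron region at 58.5 for Pcdhb20, while all other regions of these groups lie at or under 4.68.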

How the data were processed

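Scaled signal was deposited as 1 file for each captured region, and a table repeated it (largest difference 0). Every column had a sample (0 without one). The signal had been scaled by the authors to a common upper quartile of 3.12, as the values show. The submitters' processing notes name DRAGEN, mm10 and GRCm38. Their roles, the gene filter, the probe design and the treatment of counts of 0 are not given in the sources used here. Entries at 1 read may stand for 0 or 1. Dividing each region by its lowest value gave whole numbers, within 0.01, for 99.99% of values, which were taken as reads. In 1 gene they were not whole, and it was left out of tests on reads. A total of 66 entries held a letter, 0 of them in the 77 genes, and were treated as missing.

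Genes at or above the 0.25 quantile of the mean (1.85) were tested, 4686 of 6248, on log2(value + 1) with limma 3.58.1 in R 4.3.3 (lmFit, eBayes with trend), with 1 mean per group over 50 regions. Differences on this scale understate the change of low genes. The fit took the spread from all genes of like mean, so the SE of a gene that varies more is too small. The Benjamini-Hochberg adjustment covered all genes tested, with calls at an adjusted p of 0.05. Alternatives were edgeR 4.0.16 and DESeq2 1.42.0 on recovered reads (edgeR called 154 of 4646 genes with noise in neurons and 5 in supporting cells), other pseudocounts (0.5 and 10), filters, blocks, weights and single regions left out. The limma fit was also run on simulated reads, with changes in noise neurons only, 1 spread for all genes and no animals shared between regions. This simulation cannot bear on the differences between region types or on regions that share an animal.

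Named were genes called in any of 5 comparisons, genes above the Olfr limit in any group, and well-known members listed whatever their values. Genes with an unadjusted p under 0.05 for noise against mock within a region type, and Pcdhgc5, were also named after their values were seen. The genes, lists, rules and alternatives were chosen with earlier results of these data known. Gene positions and promoters came from RefSeq tables (GRCm38.p6). Some values are not reported here.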

Additional observations from a re-analysis of the deposited data

Results flagged for a closer look

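In the 8 noise supporting-cell regions, 24 named genes were checked for a region that lies apart from the rest of its group by a gap large against the group's range, and 4 had one, where chance gives about 1 in 20. Pcdha9 was 10.9 in replicate 2 (7 reads) and 0.624 to 4.16 in the others. Robo4 was 7.80 in replicate 1 (10 reads) and 3.12 to 5.20 in the others. Sema4d was 4.68 in replicate 2 (3 reads) and 1.04 to 1.87 in the others, which also held 1 to 3 reads. Sema5a was 6.24 in replicate 2 (4 reads) and 1.56 to 3.74 in the others, which held 2 to 6 reads. Replicate 2 had the fewest reads of this group (11768), and 1 read was worth 1.56 there, against 0.624 to 1.04 in the others. Since values move in steps of 1 read, the rate of 1 in 20 may not hold for them. Of these 4 genes, Robo4 was above the olfactory receptor limit in this group.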

How the results depend on the processing

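Of the counts of genes passing the test, that for mock cochleae (6) was 1 after adjusting for each region's olfactory receptor mean and 3 with edgeR without mock neuron replicate 15 and noise neuron replicate 5, an alternative chosen after seeing the data. It ran from 3 to 9 as single regions were left out. The count for noise cochleae (2) was 1 with DESeq2, which gave 51 of the 58 genes no adjusted p, 4 with a pseudocount of 0.5 and 4 without noise supporting-cell replicate 8, whose labels list a further well, and ran from 2 to 4 over single regions. The count with noise in neurons (0) was 2 with edgeR, and 0 over single regions, as were the counts for supporting cells and for the difference of noise effects. The causes were not tested. Replicate numbers did not pair the regions (correlation of same-numbered neuron regions -0.11 to 0.01), and the replicate block gave 6, 2, 0, 0 and 0, and the area block 8, 2, 0, 0 and 0. The counts above the olfactory receptor limit were 9, 3, 3 and 1. At the 0.90 quantile 5 genes passed in noise neurons, 7 in mock and 2 in noise supporting cells. At the 0.99 quantile 4 passed in mock neurons, 0 in mock and 0 in noise supporting cells. Medians over regions gave 0 in mock supporting cells, and a pseudocount of 10 gave 5 in noise neurons. With medians the mock neuron count stayed at 9, but Nlgn2 and Pcdhb14 passed in place of Nrcam and Ntrk3. Pcdha9 lost its call in 9 of 16 alternatives and 16 of 50 single-region fits, Pcdhb9 in 7 of 15 and 13 of 50, Sema5a in 4 of 16, Plxnd1 in 2 of 15, Sema3b and Ntng2 in 1 of 16 each. Medians of 1 to 4 reads per region limit most of these genes.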

Other observations

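Single regions far above the rest of their group were not particular to Nrcam and Pcdhb20. Over the 6248 genes, 7 in mock neurons and 10 in noise neurons had 1 region at least 5 times the next highest, up to 39.5 times, spread over 7 regions, and 0 had one in either supporting-cell group, where the highest ratios were 4.67 and 4.50. The 66 entries given as a letter all lay in supporting-cell regions, 60 in the 8 noise regions and 6 in mock regions, and 0 in neuron regions.

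Sema7a, Plxna4 and Ntng2 stood above the olfactory receptor entries in neuron regions of both exposures, while Ncam1, Nrcam, Sema3f, Robo4, Plxna1 and Ntrk3 were above them in mock neurons and not in noise neurons without passing the noise comparison. The limit itself was 1.74 in mock and 2.03 in noise neurons, and the share of other genes above it was 31.4% and 16.8%.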
